A study of Mus musculus with 27 samples.

Results

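The genes described here are 8 transcriptional targets of SREBP2 listed under the name cholesterol synthesis and uptake genes: Hmgcs1, Sqle, Idi1, Fdps, Fdft1, Lss, Cyp51 and Insig1. They were taken from the deposited table of expected read counts as the rows whose gene symbol is on the list. The table holds 37310 genes, and 7 of the 8 listed genes have a row; all 7 were among the 15387 genes with enough reads to be tested. Hmgcs1 was not analysed here. No gene of the 8 is itself a receptor or carrier for cholesterol, so the 7 are called sterol synthesis genes below, with Insig1 as their regulator, and the uptake genes are described from a separate list.

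RNA was sequenced from mouse embryonic fibroblasts (MEFs), which are primary cells grown from embryos, in 4 groups of 3 libraries: female wild-type, female Firre KO, male wild-type and male Firre KO. Firre is a long noncoding RNA gene on the X chromosome that lies at the boundary of a topologically associating domain, and the study asked what happens when it is removed. The Firre KO MEFs carry a germline deletion of the whole locus, made by recombination between loxP sites. Female ones are Firre-/-, and male ones carry the deletion on their only X chromosome. Like the wild-type MEFs, they came from embryos at E13.5, with no treatment named in the labels. The head, limbs and viscera were removed before culture, so each culture is a mixture of the cells of an embryonic carcass. The labels do not say whether the 3 libraries of a group come from different embryos, so p-values measure the spread between these libraries, which may be technical.

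Cholesterol is made from acetyl-CoA through the mevalonate pathway, in which isoprenoid units are built, joined into squalene and closed into the sterol ring. The transcription factor SREBP2 is held in the endoplasmic reticulum with its escort SCAP by INSIG proteins when membrane sterols are high, and it is released to the nucleus when they are low, where it raises nearly every enzyme of the pathway together with genes of cholesterol uptake. Fibroblasts in culture use both synthesis and uptake, and the balance depends on the cholesterol that serum supplies.

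Promoters of SREBP2 targets are known to pair a sterol regulatory element with boxes for NF-Y (CCAAT) and Sp1, so the 250 bases upstream of the transcription start are shown for the 4 genes that the RefSeq promoter table (GRCm38.p6) holds under their symbol, with CCAAT or its reverse complement ATTGG in capitals. Each is written 5′ to 3′ on the strand of its gene. Idi1 lies at chr13:8885356-8885605, plus strand, Lss at chr10:76531355-76531604, plus strand, Cyp51 at chr5:4104698-4104947, minus strand and Insig1 at chr5:28071162-28071411, plus strand.
Idi1: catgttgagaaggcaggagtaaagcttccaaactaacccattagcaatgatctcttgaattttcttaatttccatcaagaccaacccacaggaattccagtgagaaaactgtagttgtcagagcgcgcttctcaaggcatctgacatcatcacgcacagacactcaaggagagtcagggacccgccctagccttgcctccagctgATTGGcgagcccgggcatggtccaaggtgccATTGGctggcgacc
Lss: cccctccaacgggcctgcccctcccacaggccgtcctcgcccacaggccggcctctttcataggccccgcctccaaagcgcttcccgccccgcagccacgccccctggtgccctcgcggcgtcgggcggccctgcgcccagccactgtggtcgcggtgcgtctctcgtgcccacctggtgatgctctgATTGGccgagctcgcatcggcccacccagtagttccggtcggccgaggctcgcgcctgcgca
Cyp51: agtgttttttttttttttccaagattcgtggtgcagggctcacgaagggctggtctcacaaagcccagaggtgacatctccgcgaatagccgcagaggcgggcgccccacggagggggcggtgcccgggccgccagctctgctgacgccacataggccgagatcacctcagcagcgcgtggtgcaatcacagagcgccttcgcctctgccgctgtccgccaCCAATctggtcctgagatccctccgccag
Insig1: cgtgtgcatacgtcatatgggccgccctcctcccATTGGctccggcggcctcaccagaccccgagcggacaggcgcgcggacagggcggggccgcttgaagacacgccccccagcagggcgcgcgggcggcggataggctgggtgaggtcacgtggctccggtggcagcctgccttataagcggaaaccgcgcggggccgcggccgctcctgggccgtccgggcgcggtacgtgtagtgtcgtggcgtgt
The CCAAT box was present in 4 of 4 of these windows and in 33.8% of the 32851 promoters of the same length in the table, searched on both strands. The Sp1 box GGGCGG was also in 4 of 4, against 32.7% of all promoters. The E-box CANNTG was in 3 of 4 (66.2% of all). The sterol regulatory element written as TCACNCCAC was in 0 of 4, and in 1.05% of all promoters. Other forms of this element were not searched for, so the count does not show that the windows lack one. These are matches of letters, not measured binding sites. In these windows no match overlapped a match to another motif. The Idi1 window held 2 CCAAT boxes, 45 and 14 bases upstream of the start, and the Lss and Cyp51 windows held 1 each, 62 and 29 bases upstream. In Insig1 the CCAAT box stood 216 bases upstream.

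The libraries held 42986516 to 65454660 expected counts, and every male library (at least 51521907) was deeper than every female library (at most 51481034). Replicate 3 stood apart from the other male libraries over all genes in both genotypes, with a chi-square per degree of freedom of 35.2 to 41.9 against 7.11 to 15.5 for every other pair of replicates, and results are also given below without these 2 libraries, a choice made after seeing the data. Firre itself was at 0 counts in the 6 Firre KO libraries, at 90 to 129 counts in female wild-type and at 239 to 307 counts in male wild-type libraries. All 12 fibroblast markers were detected, with a summed level of 16487.3 to 24572 CPM (counts scaled to a common library size). The 8 macrophage markers summed to 33.6 to 103 CPM in female and 8.21 to 14.9 CPM in male libraries, and the 6 epithelial markers to 20.2 to 64.1 CPM against 5.47 to 14.9 CPM. Within female MEFs the epithelial sum also differed by genotype, at 24.8 to 64.1 CPM in wild-type and 20.2 to 22.0 CPM in Firre KO libraries. Its part in the Firre KO comparison was not tested. The 5 endothelial markers were also apart between the sexes, at 24.9 to 35.0 CPM in female and 17.1 to 23.3 CPM in male libraries. The 6 adipocyte markers ran the other way in wild-type libraries, at 0.433 to 0.982 CPM in female and 5.05 to 12.2 CPM in male MEFs, and overlapped in Firre KO libraries (0.332 to 3.5 and 1.13 to 6.76 CPM). The skeletal muscle markers (77.5 to 145 CPM) and the neural markers (44.9 to 67.6 CPM) overlapped between the sexes in both genotypes. The 7 hepatocyte markers stayed at 0.487 to 1.71 CPM, and Cyp3a11 and Serpina1a among them were at 0 in all libraries.

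The isoprenoid steps come first. Idi1 (ENSMUSG00000058258.6, chromosome 13, 8884852 to 8891641 on the plus strand of mm9) encodes the isomerase that interconverts the pair of building blocks from which all isoprenoids are joined. Replicates 1, 2 and 3 held 43.4, 34.6 and 26.1 CPM of Idi1 in female wild-type MEFs and 31.9, 38.3 and 30.2 CPM in female Firre KO MEFs. In male MEFs they held 54.0, 57.1 and 50.9 CPM (wild-type) and 53.9, 46.4 and 53.4 CPM (Firre KO). The female and male values of Idi1 did not overlap, and the female wild-type libraries were the most spread of any group. Group means were 34.7 ± 8.64 CPM in female wild-type, 33.5 ± 4.31 CPM in female Firre KO, 54.0 ± 3.10 CPM in male wild-type and 51.3 ± 4.21 CPM in male Firre KO MEFs (SD, n = 3 each). Fdps (ENSMUSG00000059743.7, chromosome 3, 88897514 to 88905881, minus strand) encodes farnesyl diphosphate synthase, which joins these units into the branch-point compound of the pathway. In female MEFs, Fdps stood at 72.0, 70.1 and 61.5 CPM in wild-type replicates 1 to 3 and at 66.1, 78.9 and 71.4 CPM in Firre KO replicates 1 to 3. The male wild-type libraries gave 104, 108 and 75.4 CPM and the male Firre KO libraries 100.3, 104 and 86.6 CPM. Male wild-type replicate 3 stood well below the other two and just above the female wild-type range, and female and male libraries of one genotype did not overlap. This gave Fdps means of 67.8 ± 5.61 CPM (female wild-type) and 72.1 ± 6.39 CPM (female Firre KO), and of 95.9 ± 17.9 and 96.9 ± 9.14 CPM in the male groups (SD, n = 3 each). A U6 RNA gene is annotated inside Fdps on the same strand.

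Squalene is made and opened for ring closure next. Fdft1 (ENSMUSG00000021273.9, chromosome 14, 63763990 to 63796630, minus strand) encodes squalene synthase, the first enzyme committed to sterols. The female wild-type libraries gave 34.8, 32.8 and 30.5 CPM of Fdft1, and the female Firre KO libraries 34.6, 41.0 and 36.8 CPM. For male MEFs the values were 50.2, 51.5 and 39.6 CPM in wild-type and 47.4, 50.7 and 41.2 CPM in Firre KO libraries. The female libraries lay below the male ones within each genotype, with almost no gap between the highest female and the lowest male Firre KO library. Averaged by group, Fdft1 reached 32.7 ± 2.16 (female wild-type), 37.5 ± 3.24 (female Firre KO), 47.1 ± 6.54 (male wild-type) and 46.4 ± 4.83 CPM (male Firre KO; SD, n = 3 each). Reads of Fdft1 and of Ctsb, which overlaps it on the plus strand, may not be fully separated, since the counting is not stated to use strand. Sqle (ENSMUSG00000022351.8, chromosome 15, 59146632 to 59162747, plus strand) encodes squalene epoxidase, a rate-limiting enzyme of the pathway. Replicates 1, 2 and 3 held 71.3, 64.9 and 63.8 CPM of Sqle in female wild-type MEFs and 62.3, 74.9 and 68.2 CPM in female Firre KO MEFs. In male MEFs they held 86.9, 91.7 and 78.2 CPM (wild-type) and 80.5, 82.4 and 80.1 CPM (Firre KO). The male Firre KO libraries were the least spread of all groups for Sqle, and no female library reached the male range. Group means were 66.7 ± 4.05 CPM in female wild-type, 68.5 ± 6.32 CPM in female Firre KO, 85.6 ± 6.84 CPM in male wild-type and 81.0 ± 1.19 CPM in male Firre KO MEFs (SD, n = 3 each).

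Lss and Cyp51 act on the ring. Lss (ENSMUSG00000033105.6, chromosome 10, 75994333 to 76019883, plus strand) encodes lanosterol synthase, which closes the first sterol. In female MEFs, Lss stood at 32.3, 31.6 and 30.5 CPM in wild-type replicates 1 to 3 and at 30.4, 38.4 and 32.0 CPM in Firre KO replicates 1 to 3. The male wild-type libraries gave 45.0, 47.8 and 35.7 CPM and the male Firre KO libraries 43.4, 43.8 and 40.8 CPM. Female Firre KO replicate 2 was above the other female libraries, and male wild-type replicate 3 was the lowest male library, yet female and male libraries of one genotype did not overlap. This gave Lss means of 31.4 ± 0.909 CPM (female wild-type) and 33.6 ± 4.23 CPM (female Firre KO), and of 42.8 ± 6.31 and 42.7 ± 1.61 CPM in the male groups (SD, n = 3 each). The gene 4930483K19Rik overlaps Lss on the other strand, with the same limit on strand. Cyp51 (ENSMUSG00000001467.4, chromosome 5, 4081145 to 4104746, minus strand) encodes the cytochrome that demethylates lanosterol. The female wild-type libraries gave 76.8, 70.2 and 68.8 CPM of Cyp51, and the female Firre KO libraries 67.6, 88.6 and 75.8 CPM. For male MEFs the values were 122, 130.4 and 106 CPM in wild-type and 111, 121 and 117 CPM in Firre KO libraries. Here the gap between the sexes was the widest of the 7 genes, with every female library under every male library by a wide margin. Averaged by group, Cyp51 reached 71.9 ± 4.25 (female wild-type), 77.3 ± 10.6 (female Firre KO), 119 ± 12.5 (male wild-type) and 116 ± 4.90 CPM (male Firre KO; SD, n = 3 each).

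Insig1 (ENSMUSG00000045294.9, chromosome 5, 28397952 to 28405201, plus strand) encodes the protein that retains SCAP with SREBP2 and is itself raised by it. Replicates 1, 2 and 3 held 50.0, 50.2 and 45.9 CPM of Insig1 in female wild-type MEFs and 47.5, 66.6 and 53.2 CPM in female Firre KO MEFs. In male MEFs they held 59.7, 66.6 and 49.4 CPM (wild-type) and 63.8, 59.1 and 54.3 CPM (Firre KO). The sexes overlapped for Insig1 in both genotypes, because female Firre KO replicate 2 was as high as any male library and male wild-type replicate 3 was as low as female ones. Group means were 48.7 ± 2.42 CPM in female wild-type, 55.8 ± 9.83 CPM in female Firre KO, 58.6 ± 8.67 CPM in male wild-type and 59.1 ± 4.73 CPM in male Firre KO MEFs (SD, n = 3 each).

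**Figure D1:**
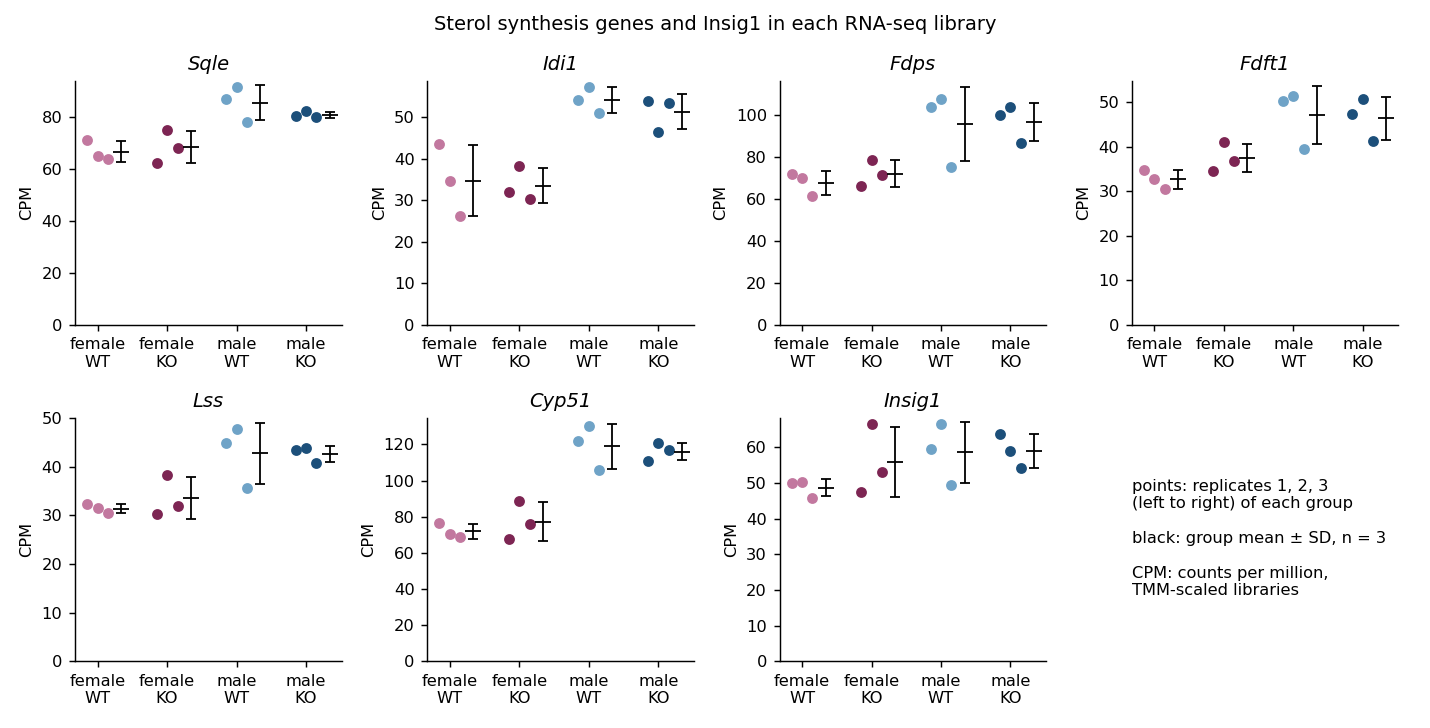
CPM (y axes, from 0) of the 7 genes in each of the 12 libraries, by sex and genotype, with points for replicates 1 to 3 and black marks for the mean ± SD. Wild-type and Firre KO points of one sex share a range in every panel, and within a genotype the male points sit above the female ones in every panel except Insig1, where they overlap.

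Levels between genes were compared per kb of the longest coding transcript, as means over the 12 libraries. Fdps was highest at 67.5 CPM per kb, followed by Sqle at 27.4, Cyp51 at 24.5, Insig1 at 21.0, Idi1 at 15.1, Fdft1 at 14.3 and Lss at 8.06. Fdps stood apart from the rest in every group. Sqle and Cyp51 lay within their spread in male wild-type MEFs (31.0 ± 2.48 and 30.3 ± 3.17 CPM per kb, SD, n = 3) but not in female wild-type MEFs (24.2 ± 1.47 and 18.3 ± 1.08). Cyp51 and Insig1 lay together in female wild-type MEFs, where Insig1 was at 18.4 ± 0.915 CPM per kb. Idi1 and Fdft1 were within their spread there as well, at 12.1 ± 3.02 and 11.4 ± 0.755. Over merged exons instead of 1 transcript, Sqle was at 13.6 and Lss at 3.49 CPM per kb, so the place of Sqle depends on the transcript chosen. By CPM, between 68.0% (Lss) and 86.3% (Cyp51) of the tested genes were lower, so that the sterol synthesis genes were all above the median gene at 15.6 CPM.

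The comparison of Firre KO with wild-type MEFs asked whether removal of the locus goes with a change in these genes. No gene of the 7 changed by the study's thresholds, which are an adjusted p below 0.01 together with a log2 fold change beyond 1 in either direction. In the quasi-likelihood test of edgeR, adjusted by Benjamini-Hochberg, 0 of 7 genes passed in female MEFs, in male MEFs and on the average over both sexes, where 0.0065% of all tested genes passed in each. At an unadjusted p under 0.05 the counts were again 0 of 7, against 7.55% of all genes in female MEFs, 2.06% in male MEFs and 6.24% on the average. DESeq2 also called 0 of 7 in each. The libraries of the groups did not separate for any of the 7 genes, while 19.1% of all genes separated in female and 5.29% in male MEFs.

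In female MEFs, the log2 fold change was -0.05 ± 0.15 (SE) for Idi1, 0.09 ± 0.13 for Fdps, 0.20 ± 0.11 for Fdft1, 0.04 ± 0.07 for Sqle, 0.10 ± 0.11 for Lss, 0.10 ± 0.10 for Cyp51 and 0.20 ± 0.13 for Insig1. The adjusted p from edgeR ran from 0.707 (Fdft1) to 0.965 (Idi1). In male MEFs it was -0.07 ± 0.15 for Idi1, 0.02 ± 0.13 for Fdps, -0.02 ± 0.11 for Fdft1, -0.08 ± 0.07 for Sqle, -0.01 ± 0.10 for Lss, -0.04 ± 0.10 for Cyp51 and 0.01 ± 0.13 for Insig1, each with an adjusted p of 1 from edgeR. The 95% intervals give the size of change that these libraries leave possible. For Sqle, the most precisely measured, they ran from -0.12 to 0.20 in female and from -0.24 to 0.08 in male MEFs, and for Idi1 from -0.39 to 0.29 and from -0.40 to 0.25. The highest bound in female MEFs was 0.48, for Insig1. None of these intervals reached a change of 1 on the log2 scale. The median of the 7 was 0.10 in female and -0.02 in male MEFs, beside medians of 0.00 over all tested genes. Neither direction held when 1 library was left out. The female median was -0.01 without female Firre KO replicate 2 and up to 0.16 without female Firre KO replicate 1. The male median ran from -0.12 without male wild-type replicate 3 to 0.05 without male wild-type replicate 2, was 0.03 without male wild-type replicate 1 or male Firre KO replicate 3, and was -0.09 without both male replicate 3 libraries.

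Whether the change differed between the sexes was tested in the same model. The difference (female minus male) was above 0 for 7 of 7 genes, from 0.02 ± 0.22 (Idi1) to 0.22 ± 0.15 (Fdft1), as it was for 50.9% of all tested genes, and 0 of 7 passed the thresholds or an unadjusted p under 0.05, where 0% and 3.19% of all genes did. The 7 differences share the same libraries. Female Firre KO replicate 2, which was the highest of its group for all 7 genes, enters each of them. Without it 5 of 7 were above 0, with Idi1 at -0.09 and Lss at -0.01, and without male wild-type replicate 2 it was also 5 of 7, with Idi1 and Fdps at -0.02. DESeq2 called 0 of 7 as well.

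**Figure D2:**
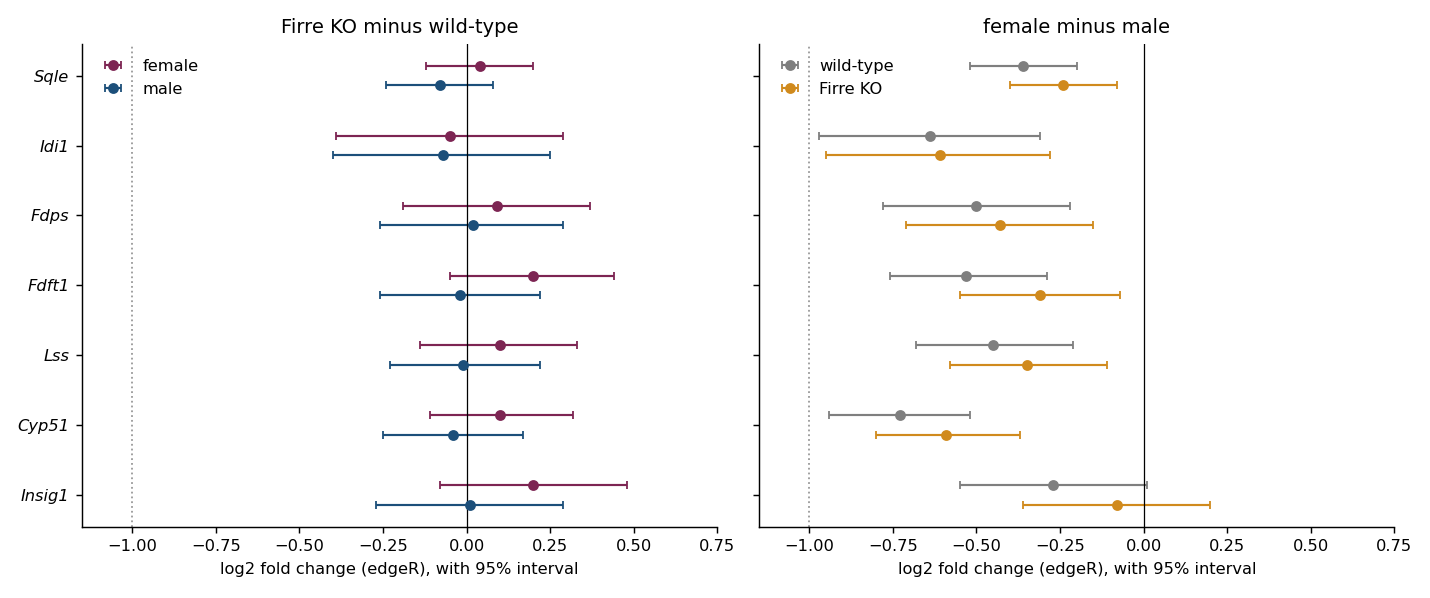
Log2 fold change of each gene with its 95% interval from edgeR, for Firre KO minus wild-type in each sex (left) and for female minus male in each genotype (right), with a dotted line at -1. All intervals on the left cross 0, and on the right all lie below 0 except those of Insig1.

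Except for Insig1 in Firre KO MEFs, a larger difference in these genes lay between female and male MEFs, in both genotypes. The mean of each of the 7 genes was lower in female than in male libraries, in wild-type and in Firre KO MEFs. Cyp51 differed most, at 71.9 against 119 CPM in wild-type MEFs, a log2 difference (female minus male) of -0.73 ± 0.10 that is 1.66-fold lower (adjusted p = 2.8e-04, edgeR). Idi1 differed by -0.64 ± 0.15 (adjusted p = 0.00715), Fdft1 by -0.53 ± 0.11 (0.00349), Fdps by -0.50 ± 0.13 (0.0103), Lss by -0.45 ± 0.11 (0.00692) and Sqle by -0.36 ± 0.07 (0.00322), each adjusted p from edgeR. Insig1 did not pass, at -0.27 ± 0.13 with an interval from -0.55 to 0.01 (adjusted p = 0.12, edgeR).

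Read against the background, 0 of 7 passed both thresholds in wild-type MEFs (4.54% of all tested genes), by DESeq2 as well. At an adjusted p under 0.01 without a limit on the fold, 5 of 7 were lower in female MEFs, beside 12% of all genes, and at an adjusted p under 0.05 it was 6 of 7, beside 19.8%. The groups did not overlap for 6 of 7 genes, with 26.4% of all genes lower without overlap. The median log2 difference was -0.50 over the 7 and -0.01 over all genes. Leaving out female wild-type replicate 2 or 3, or male wild-type replicate 1 or 2, left 1 of 7 (Cyp51) at an adjusted p under 0.01, and leaving out male Firre KO replicate 1 left 3 (Sqle, Fdft1 and Cyp51), while 6 of 7 stayed under 0.05 in each of these fits. Without both male replicate 3 libraries, 5 of 7 were under 0.01 (Sqle, Fdps, Fdft1, Lss and Cyp51) and 7 of 7 under 0.05.

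In Firre KO MEFs the log2 differences were -0.59 ± 0.10 for Cyp51 (adjusted p = 1.0e-03, edgeR), -0.61 ± 0.15 for Idi1 (0.00875), -0.43 ± 0.13 for Fdps, -0.35 ± 0.10 for Lss, -0.31 ± 0.11 for Fdft1 and -0.24 ± 0.07 for Sqle, and -0.08 ± 0.13 for Insig1 (adjusted p = 0.639, edgeR). This comparison was added after the wild-type one had been seen. Past both thresholds there were 0 of 7 (3.89% of all genes), at an adjusted p under 0.01 there were 2 of 7, Cyp51 and Idi1 (11.7% lower), and at an adjusted p under 0.05 there were 6 of 7 (19.7% lower). The groups were apart for 6 of 7 genes, against 25.7% of all genes. Without female Firre KO replicate 1 or 3, or male Firre KO replicate 1 or 2, the count at an adjusted p under 0.05 fell from 6 to 2 (Idi1 and Cyp51). The count at 0.01 fell from 2 to 1 (Cyp51) in these same fits and without female wild-type replicate 2, male wild-type replicate 1 or 2, or male Firre KO replicate 3. It rose to 3 without female Firre KO replicate 2 (Idi1, Lss and Cyp51) or male wild-type replicate 3 (Fdps, Lss and Cyp51), and to 4 without both male replicate 3 libraries (Fdps, Fdft1, Lss and Cyp51).

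Sex cannot be told apart here from the embryos the cultures came from, nor from depth, since each male library was deeper. The macrophage, epithelial and endothelial markers were higher in female libraries of both genotypes and the adipocyte markers lower in female wild-type libraries, at the levels given above, and their part in the difference was not tested. In such bulk samples, fewer cells of a type and less RNA per cell cannot be told apart. Summed over the 7 genes, the level was 354 ± 26.7 CPM in female wild-type, 378 ± 44.2 in female Firre KO, 503 ± 61.2 in male wild-type and 493 ± 17.6 CPM in male Firre KO MEFs (SD, n = 3). Both female groups were below both male groups in every library, and the groups of one sex lay within their spread.

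Within groups the genes moved together from library to library. For this, the group mean of the log2 CPM was subtracted from each library's value, gene by gene, so that neither sex nor genotype contributes. Female Firre KO replicate 2 was above its group mean for 7 of 7 genes, by 0.13 (Sqle) to 0.27 (Insig1) on the log2 scale, and male wild-type replicate 3 was below it for 7 of 7, with deviations from -0.08 (Idi1) to -0.33 (Fdps). The mean deviation of the 7 was 0.18 and -0.20 in these libraries. In male Firre KO MEFs the libraries stayed closer, with mean deviations from -0.06 to 0.03.

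**Figure D3:**
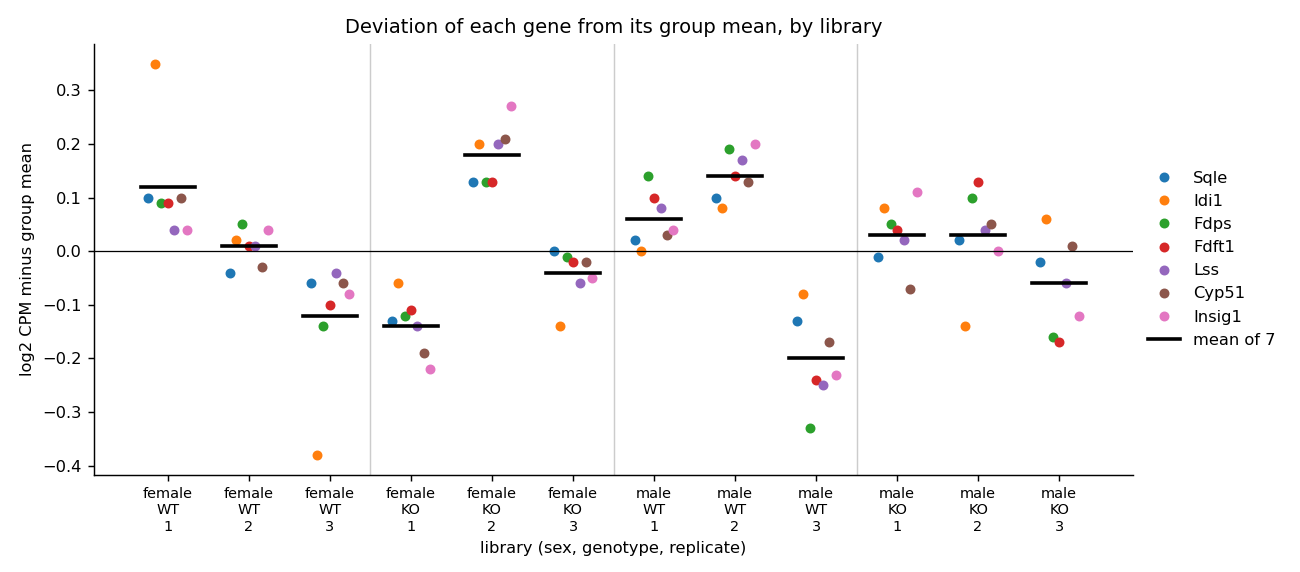
Log2 CPM minus the group mean (y axis) of the 7 genes in each library (x axis), one colour per gene, with a black bar for the mean of the 7. The points of one library lie mostly on one side of 0, from 0.13 to 0.27 in female Firre KO replicate 2 and from -0.33 to -0.08 in male wild-type replicate 3, and Idi1 departs from the others in several libraries.

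Over the 21 pairs of genes, Pearson's r of these deviations across the 12 libraries had a median of 0.84, and all 21 were above 0. Spearman's rho had a median of 0.81. For all pairs of tested genes the median r was 0.00, with 5% of pairs below -0.69 and 95% below 0.70, and 1.09% of pairs reached 0.84 or more. Fdps with Fdft1 (r = 0.98) and Sqle with Cyp51 (r = 0.97) were the closest pairs. Idi1 was the least alike: its r with the other genes ran from 0.43 (Fdft1) to 0.62 (Sqle), and it was 0.52 with the mean of the others, while the other 6 genes reached 0.88 to 0.94. Idi1 deviated by -0.14 in male Firre KO replicate 2, where the other 6 genes ran from 0.00 to 0.13. In female wild-type MEFs it was the most spread, at 0.35 in replicate 1 and -0.38 in replicate 3.

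**Figure D4:**
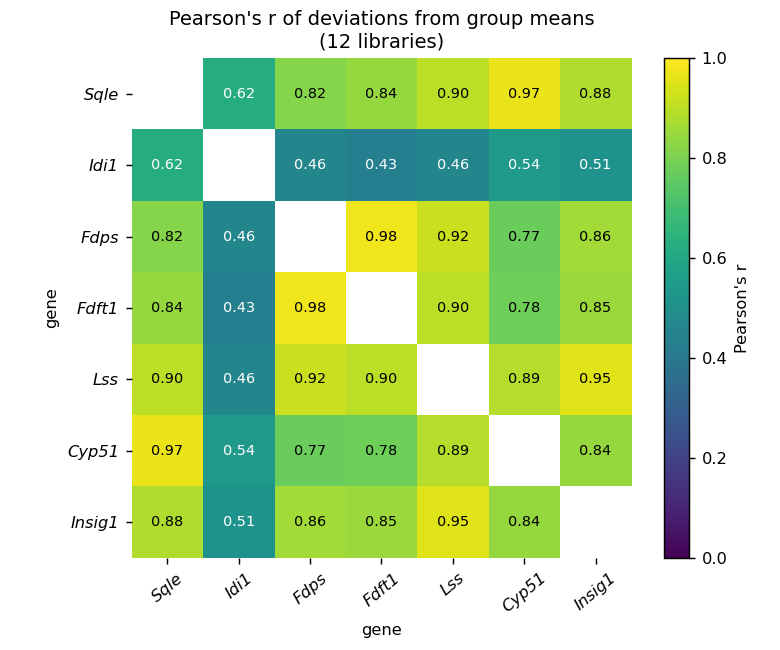
Pearson's r of the deviations from group means for each pair of genes (rows and columns, colour from 0 to 1), over 12 libraries. The row of Idi1 holds the lowest values, 0.43 to 0.62, and the pairs without Idi1 run from 0.77 to 0.98.

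The points share the library and its scaling, and the 4 group means take away degrees of freedom, so the r is a description with no test. Without the 2 libraries farthest from the median, male wild-type replicate 3 and female Firre KO replicate 2, the median r over pairs was 0.63 and the lowest 0.29, over 10 libraries. Within the female libraries alone it was 0.88 and within the male libraries 0.87, and without both male replicate 3 libraries it was 0.85. The mean deviation of the 7 had r = 0.28 with the log2 depth of the library measured the same way, and 0.08 without those 2 libraries. RNA quality was not measured in these files and was not tested.

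Among all other tested genes, Tm9sf1, which encodes a membrane protein of the transmembrane 9 superfamily, followed the mean deviation of the 7 most closely over the 12 libraries, with r = 0.97 (rank 1). Then came Prkaca, the catalytic subunit of protein kinase A (0.97), BC057079 (0.96), BC056474 (0.95) and Sc4mol (0.95), the sterol methyl oxidase now named Msmo1. Sc4mol, the one gene of the sterol pathway among these 5, lies between Cyp51 and the later enzymes. Its deviations were 0.16 in female Firre KO replicate 2 and -0.15 in male wild-type replicate 3. Those of Tm9sf1 were smaller, at 0.06 and -0.07.

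The other enzymes of the pathway were taken from a list of 15 genes, all tested. None of the 15 passed the thresholds in the Firre KO comparison of either sex, and 1 in female and 0 in male MEFs had an unadjusted p under 0.05, beside 7.55% and 2.06% of all genes. In female MEFs the log2 fold change was 0.14 ± 0.10 for Mvd, which makes isopentenyl diphosphate, and 0.21 ± 0.16 for Nsdhl. Between female and male wild-type MEFs, 5 of 15 were lower at an adjusted p under 0.01 and 1 was higher, beside 12% and 10.4% of all genes. Sc5d, the desaturase near the end of the pathway, was lower, with a log2 difference of -0.38 ± 0.06 (adjusted p = 7.2e-04, edgeR), Nsdhl, which removes the methyl groups with Sc4mol, one of -0.84 ± 0.16 (0.00201), and Sc4mol one of -0.50 ± 0.10 (0.00202). The 1 that was higher was Ebp, the sterol isomerase, at 0.33 ± 0.08 (adjusted p = 0.00917, edgeR), named after its values were seen. The median over the 15 was -0.20, against -0.50 for the 7. With the mean deviation of the 7, the 15 had a median r of 0.73, and 11 were above 0.5, as were 15.6% of all tested genes. Ggps1, which leads from the pathway to protein prenylation, was lowest at -0.51.

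Of the 6 genes that sense sterols and process SREBP, none passed the thresholds in the Firre KO comparisons. In female MEFs the lowest p were those of Srebf1 at 0.16 ± 0.05, Srebf2 at 0.19 ± 0.09 and Mbtps1 at 0.10 ± 0.05, with adjusted p from 0.512 in edgeR. In male MEFs, Srebf1 was at -0.12 ± 0.05, Scap at -0.08 ± 0.05 and Insig2 at -0.07 ± 0.05, with adjusted p of 1 in edgeR. Between wild-type female and male MEFs, 3 of 6 were lower at an adjusted p under 0.01, beside 12% of all genes: Insig2, the second retention protein, at -0.34 ± 0.05, Mbtps2 at -0.23 ± 0.05 and Mbtps1 at -0.22 ± 0.05, the last 2 being the proteases that release SREBP. Srebf2, which encodes SREBP2 itself, had r = 0.93 with the mean deviation of the 7, and Insig2 had -0.18. The median r of the 6 was 0.26.

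The 11 genes of cholesterol uptake and transport gave 0 past the thresholds in the Firre KO comparisons in edgeR, and 2 in female and 0 in male MEFs had an unadjusted p under 0.05, where 7.55% and 2.06% of all genes did. Lrp1, a large endocytic receptor, was at 827, 724 and 732 CPM in female wild-type and at 775, 931 and 908 CPM in female Firre KO libraries. In male MEFs it was at 1259, 1231 and 1163 CPM (wild-type) and 1152, 1144 and 1051 CPM (Firre KO). The wild-type and Firre KO libraries overlapped in female MEFs and did not in male MEFs, and every female library was below every male library. The log2 fold change in female MEFs was 0.20 ± 0.07 for Lrp1 (adjusted p = 0.594, edgeR) and -0.22 ± 0.12 for Vldlr, and in male MEFs it was -0.13 ± 0.07 for Lrp1 (adjusted p = 1, edgeR). Between female and male wild-type MEFs, Lrp1 was lower in female MEFs, at -0.68 ± 0.07 (adjusted p = 9.1e-05, edgeR) and was the 1 of 11 lower at an adjusted p under 0.01, a share no higher than the 12% of all genes, while Vldlr was at -0.36 ± 0.12 and the lysosomal lipase gene Lipa at 0.23 ± 0.06. With the mean deviation of the 7, the 11 had a median r of 0.36.

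**Figure D5:**
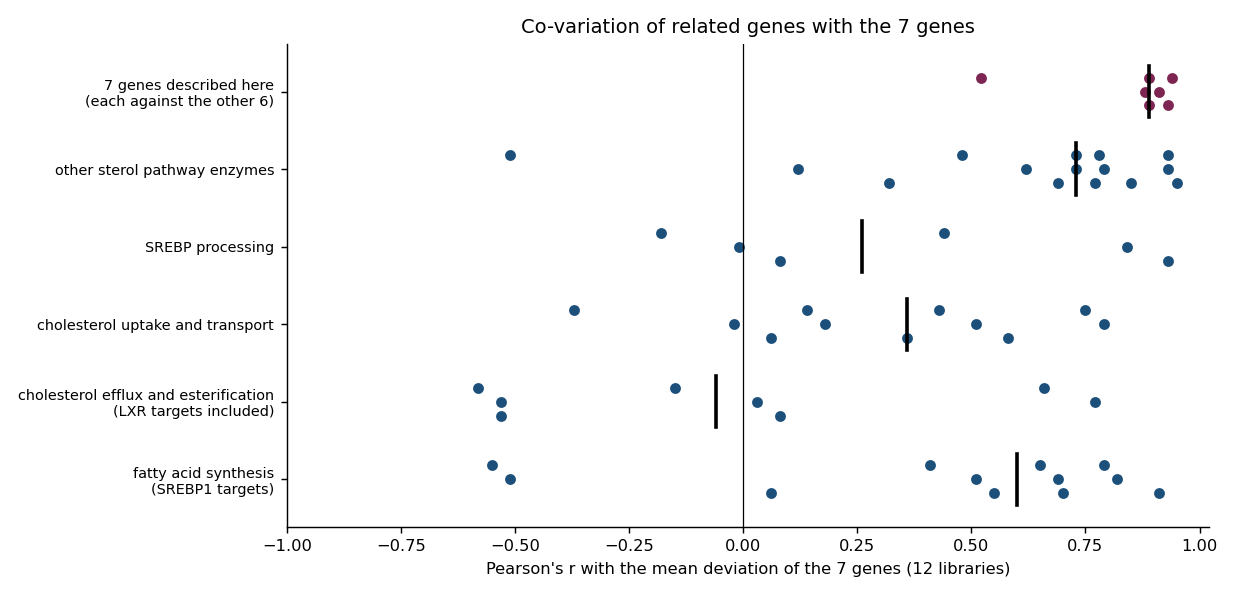
Pearson's r over 12 libraries (x axis) between each gene's deviations from its group means and the mean deviation of the 7 genes, by list (rows), with a black bar at the list median. The 7 genes themselves, each against the mean of the other 6, lie at 0.52 to 0.94, the sterol pathway enzymes have a median of 0.73, and the efflux genes scatter around 0.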

How the data were processed

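The authors extracted total RNA, prepared TruSeq (version 2) libraries, mapped filtered reads with Bowtie 2 and quantified genes with RSEM 1.2.29 against mm9. The submitters' processing notes also name DESeq2 1.4.5 and R 3.1.0. The deposited values are expected counts per gene, unscaled, in 12 libraries, and reads that map to several genes are shared out. After rounding, edgeR 4.0.16 in R 4.3.3 was applied (TMM scaling, filterByExpr, 1 mean per sex and genotype, 8 residual degrees of freedom, Benjamini-Hochberg adjustment over 15387 genes). CPM uses TMM-scaled libraries, and log2 CPM a prior count of 2. Lengths are those of the longest coding transcript in the mm9 annotation. The fit was tested on simulated data. The members and lists were chosen with earlier results of these data known. Named genes were all members, list genes past the thresholds, up to 3 genes of a list with the lowest p in a comparison, the 5 genes most like the members, and Firre. DESeq2 1.42.0, other scalings and filters, a replicate block and fits leaving out each library were alternatives. Some list genes are in the counts over their lists and are not reported here singly. Hi-C and ChIP-seq files were not analysed here. Replicate libraries differed by more than sampling noise (smallest chi-square over its degrees of freedom, 7.11). Totals of 42986516 to 65454660 counts put the 7 genes at 1343 to 8083 counts per library, and precision is limited by the 3 libraries a group.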

Additional observations from a re-analysis of the deposited data

How the results depend on the processing

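The limits are 3 libraries a group, sex confounded with embryo and depth, and expected counts that are not whole in 12 libraries for Fdft1, 11 for Idi1 and 10 for Lss, whose reads were partly shared out. The log2 fold changes of the 7 genes were computed under 826 combinations of gene, comparison and alternative. Of these, 737 kept their direction and their side of an adjusted p of 0.01, 36 lost and 13 gained the call, and 40 changed sign, of which 34 came from leaving out 1 library. The largest value at a change of sign was 0.15, and no called value changed sign. With library size alone and with the replicate block, Lss in male Firre KO against wild-type was 0.00 and had changed sign. Without both male replicate 3 libraries, Fdps was at -0.06 and Insig1 at -0.04 in male Firre KO against wild-type, and Lss at -0.00 and Cyp51 at -0.01 on the average over the sexes. The range over fits that leave out 1 library, female Firre KO against wild-type, was -0.22 to 0.14 for Idi1, -0.03 to 0.10 for Sqle, -0.01 to 0.16 for Lss and -0.01 to 0.19 for Cyp51. In male MEFs it was -0.13 to 0.11 for Fdps, -0.13 to 0.06 for Fdft1, -0.12 to 0.08 for Lss, -0.12 to 0.03 for Cyp51 and -0.10 to 0.12 for Insig1. Averaged over the sexes it was -0.15 to 0.03 for Idi1, -0.06 to 0.01 for Sqle, -0.02 to 0.10 for Fdps, -0.01 to 0.09 for Lss and -0.02 to 0.08 for Cyp51. For the difference between the sexes it was -0.15 to 0.22 for Idi1, -0.02 to 0.22 for Fdps and -0.01 to 0.22 for Lss, and for Insig1 in female against male Firre KO it was -0.23 to 0.02. The count of genes past both thresholds was 0 in every fit. Without a limit on the fold change, it was 6 at an adjusted p under 0.05 and 5 at 0.01 in female against male wild-type, and 6 and 2 in female against male Firre KO; the limit of 0.01 and the Firre KO comparison were chosen after seeing the data. In a fit of only the 6 wild-type libraries, 3 genes were under 0.01. Over all genes, the deviations of same-numbered wild-type and Firre KO replicates had r from -0.164 to -0.118 in female MEFs and of 0.097, 0.216 and 0.333 (replicates 1 to 3) in male MEFs. Male replicate 3 correlated above 0 with its own number alone, and male wild-type replicate 1 more with Firre KO replicate 2 (0.136) than with its own number. Not every pair was over 0.1, so the numbers were not used as pairs. With the replicate block, the median log2 fold change was 0.09 in female and -0.02 in male Firre KO against wild-type, 0 of 7 passed in both, and the median r over pairs was 0.79. Over all genes, DESeq2 called 4 genes in female and 2 in male MEFs where edgeR called 1 each, and 0 with the block; the cause was not tested.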

Other observations

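Of 8 genes for the removal and storage of cholesterol, 1 passed both thresholds between female and male wild-type MEFs, where 4.54% of all genes did: Apoe, the apolipoprotein that carries cholesterol out of cells, was higher in female MEFs at 36.6 against 5.52 CPM, a log2 difference of 2.73 (adjusted p = 2.0e-04, edgeR). Macrophages also express Apoe, and the summed macrophage markers were 43.0 to 73.9 CPM in female and 9.33 to 13.5 CPM in male wild-type libraries; their part was not tested. Soat1, which esterifies cholesterol for storage, was lower in female MEFs at 122 against 181 CPM, a log2 difference of -0.58 (adjusted p = 3.6e-04, edgeR). None of the 8 passed the thresholds in either Firre KO comparison, and Abcg1 had the lowest p of the list in male MEFs at -0.39.

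Fatty acid synthesis genes, which answer mainly to SREBP1, had a log2 difference (female minus male) below 0 in wild-type MEFs for 12 of 12 genes, beside 50.6% of all genes, and 5 of them were lower at an adjusted p under 0.01 in edgeR, beside 12% of all genes. Elovl6, a fatty acid elongase, was at 43.4 against 69.7 CPM (log2 difference -0.68), the desaturase gene Scd1 at 72.4 against 126 CPM (-0.80) and Acss2, which makes acetyl-CoA from acetate, at 2.16 against 3.62 CPM (-0.75). In female Firre KO against wild-type MEFs, 3 of 12 had an unadjusted p under 0.05 beside 7.55% of all genes: Fasn at 0.21, Elovl6 at 0.32 and Acaca at 0.18, with adjusted p from 0.492 in edgeR. The list's median r with the mean deviation of the 7 sterol synthesis genes was 0.60, and that of the efflux list was -0.06.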
